A study of Mus musculus with 12 samples.

Results

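The 12 genes described here were nearly unread in splenic B lymphocytes of wild-type mice and clearly read in the same cells of Eμ-Myc mice: Ltbp4, Eml1, Nav2, Eps8l2, Fstl1, Hspa12b, Galnt14, Tmem255a, Tmem132e, Orc1, Rsph9 and Chst7. They were the 12 of 24982 measured gene symbols whose mean coverage, after each library was scaled to a total of 1500000, lay below 2 in all 4 wild-type libraries and at 8 or more in all 4 Eμ-Myc libraries. Unnamed gene models and 4 early B cell or Myc-linked symbols (Bcat1, Vpreb1, Vpreb2, Igll1) were left out by name, and Bcat1 was the only symbol that this removed. The genes were thus chosen by their measured levels in WT and Eμ-Myc cells, so these levels are a description and carry no test. The libraries of Eμ-Myc mice without PRPS2 played no part in the choice.

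The study read polyadenylated RNA of B lymphocytes from spleens of mice 6 weeks old, in 12 libraries labelled as biological replicates. Wild-type mice (WT, C57BL/J6), Eμ-Myc transgenic mice and Eμ-Myc; PRPS2 KO mice (the knockout group here) had 4 libraries each. In Eμ-Myc mice the immunoglobulin heavy-chain enhancer drives a Myc transgene, so the overexpression is set up in B lineage cells, and the knockout group carries that transgene too. How the B cells were isolated, the sex of the mice and whether PRPS2 was missing in all tissues are not given in the sources used here. The study set out to catalogue expression programmes that Myc deregulates, and to ask whether the loss of PRPS2 touched them.

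Myc is a transcription factor that pairs with Max and binds E-box sequences, of which CACGTG is the classical one. It is best known for raising ribosome, nucleotide and cell cycle genes that B cells already use, and Eμ-Myc mice accumulate cycling, immature B cells before they develop lymphoma. PRPS2 is a form of phosphoribosyl pyrophosphate synthetase, whose product supplies the sugar phosphate of nucleotides. Most of the 12 genes are better known from other tissues: matrix, glycan, cytoskeleton, cilium and endothelial genes stand beside a single replication gene.

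The 250 bases before the annotated start of 4 of the genes are shown, since promoters are where an E-box or a cell cycle element would first be looked for. Tmem132e was the only one of the 12 with CACGTG in its promoter window, Orc1 the only one with an E2F-type element, Galnt14 held the GC box in 3 copies within these bases, and Chst7 stands for the promoters with a GC box and none of the other letters searched. Sequences are from RefSeq (GRCm38.p6), 5′ to 3′ on the gene's strand, and capitals mark the letters found: the E-box CACGTG, the variant CACGCG, the GC box GGGCGG, which on the other strand reads as CCGCCC, and, in Orc1, GCGCGAAA, which is TTTCGCGC on the other strand.
Tmem132e, chr11:82388650-82388899, plus strand: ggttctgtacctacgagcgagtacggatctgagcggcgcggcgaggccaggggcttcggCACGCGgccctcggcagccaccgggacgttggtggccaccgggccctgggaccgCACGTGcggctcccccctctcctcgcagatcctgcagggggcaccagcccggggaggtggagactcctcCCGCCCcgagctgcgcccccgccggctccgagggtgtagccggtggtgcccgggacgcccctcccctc
Orc1, chr4:108579204-108579453, plus strand: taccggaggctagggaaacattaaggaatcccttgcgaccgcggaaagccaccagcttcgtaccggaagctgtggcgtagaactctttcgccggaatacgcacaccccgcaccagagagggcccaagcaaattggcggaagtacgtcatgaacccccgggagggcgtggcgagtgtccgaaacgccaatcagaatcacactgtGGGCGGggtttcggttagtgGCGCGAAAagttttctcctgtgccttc
Galnt14, chr17:73710452-73710701, minus strand: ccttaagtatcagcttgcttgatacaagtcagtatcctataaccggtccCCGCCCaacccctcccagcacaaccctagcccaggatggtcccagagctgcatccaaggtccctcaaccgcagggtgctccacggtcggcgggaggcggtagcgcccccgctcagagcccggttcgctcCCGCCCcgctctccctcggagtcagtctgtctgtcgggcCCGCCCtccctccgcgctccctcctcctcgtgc
Chst7, chrX:20059320-20059569, plus strand: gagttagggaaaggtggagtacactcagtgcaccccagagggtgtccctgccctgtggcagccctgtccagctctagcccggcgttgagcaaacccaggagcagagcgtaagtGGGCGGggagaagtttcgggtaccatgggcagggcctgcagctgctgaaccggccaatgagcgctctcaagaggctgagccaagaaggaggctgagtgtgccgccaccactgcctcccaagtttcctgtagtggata

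CACGTG began 137 bases before the start of Tmem132e, and the E2F-type element began 27 bases before the RefSeq start of Orc1, which lies 31 bases inside the GENCODE gene, so that by GENCODE the element is within Orc1. In windows of 300 bases, from 250 before to 50 after each start and on both strands, CACGTG was present for 1 of the 12 genes, against 9.12% of 18203 genes in the RefSeq table. Genes with several annotated starts were counted if any window held the letters (19 windows for the 12 genes). The variant CACATG was present for 1 (Nav2; 13.3% of all genes), and CACGCG for 2 (Ltbp4 and Tmem132e; 13.7%). TATAAA, the TATA box, was found for 1 (Eml1; 14.2%). The GC box GGGCGG, which Sp1-type factors bind, was found for 10 of 12, all but Eml1 and Tmem255a, against 49.0% of all genes. TTTCGCGC or TTTGGCGC, a pair of E2F-type elements added to the search after the genes were known, was found for 1 of 12 and for 1.18% of all genes. With the highest value over the windows of each gene, the median GC content was 67% for the 12 genes and 57% for all genes. On the same basis, 6 of 12 had a CpG ratio (observed over expected) of at least 0.6, against 50.3% of all genes. The 12 genes had 19 windows and the 18203 genes 21879, so the 12 had more windows per gene from which the highest was taken. These are matches of letters only; nothing bound to them was measured.

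The genes lay on 8 chromosomes, and none was the nearest protein-coding neighbour of another. Positions are from GENCODE M21 on GRCm38, the same assembly as mm10. Chromosome 7 held Ltbp4 (chr7:27305136-27337692, minus strand), Nav2 (chr7:48908716-49610090, plus) and Eps8l2 (chr7:141338880-141363020, plus). Chromosome 17 held Rsph9 (chr17:46122035-46144216, minus) and Galnt14 (chr17:73493228-73710453, minus), and the X chromosome held Chst7 (chrX:20059560-20097521, plus) and Tmem255a (chrX:38196573-38252439, minus). The others were Hspa12b (chr2:131127280-131146321, plus), Orc1 (chr4:108579423-108614833, plus), Tmem132e (chr11:82388900-82446332, plus), Eml1 (chr12:108370957-108539617, plus) and Fstl1 (chr16:37776873-37836514, plus). Of the 24 flanking protein-coding genes, 14 were at 8 or more in all WT libraries (43.9% of all protein-coding genes were), 8 were below 2 in all of them (43.7%), and 9 had the higher mean in Eμ-Myc (30.8%). Tmem255a shares 474 exonic bases, 10.6% of its own, with Zbtb33 on the other strand, which read 52.9 in WT and 46.3 in Eμ-Myc. Rsph9 overlaps Mrps18a on the other strand with 0 shared exonic bases. Whether the authors' counting used strand is not given in the sources used here, so part of the low coverage of Tmem255a could not be told apart from that of Zbtb33.

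In the knockout group, Prps2 read 19.5, 17.3, 15.0 and 14.3, against 134 ± 22.1 (SD, n = 4) in WT and 232 ± 41.0 (n = 4) in Eμ-Myc, so the targeted gene matched the labels. Myc itself read 289 ± 50.8 in WT and 1806 ± 336 in Eμ-Myc (n = 4 each), and 1172, 1743, 2642 and 2906 in knockout libraries 1 to 4. The 8 B cell markers used (Cd79a, Cd79b, Ms4a1, Pax5, Cd22, Ebf1, Blk and Cd74) were all read in every group. They summed to 15811 to 25974 in WT and 12475 to 15296 in Eμ-Myc. Knockout libraries 1 and 2 stood apart from 3 and 4 in markers of B cells and of other cells. The B cell markers summed to 16197 and 15432 in the first pair and 8152 and 8587 in the second, which was below every Eμ-Myc library. Most of this difference was Cd74, which read 9718 and 8860, then 3039 and 3162. Of the 8 markers, 7 were lower in both libraries of the second pair, an order shown by 51.5% of all genes. Ebf1, the exception, read 702 and 799, then 752 and 868. The 12 T cell markers summed to 945 and 1050, then 36.5 and 32.8, beside 754 to 4614 in WT and 139 to 214 in Eμ-Myc. The 9 NK cell markers summed to 691 and 505, then 24.7 and 22.1, beside 407 to 1735 in WT and 98.2 to 234 in Eμ-Myc. The 11 myeloid markers summed to 20330 and 14504, then 3037 and 1271, beside 9497 to 32935 in WT and 6344 to 18575 in Eμ-Myc. T and NK cell markers thus also separated WT from Eμ-Myc without overlap. In bulk RNA, more cells of a type and more RNA per cell cannot be told apart, and the part of this makeup in the results below was not tested. Results that use the knockout group are therefore given per library, and the tests also without either pair.

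**Figure D1:**
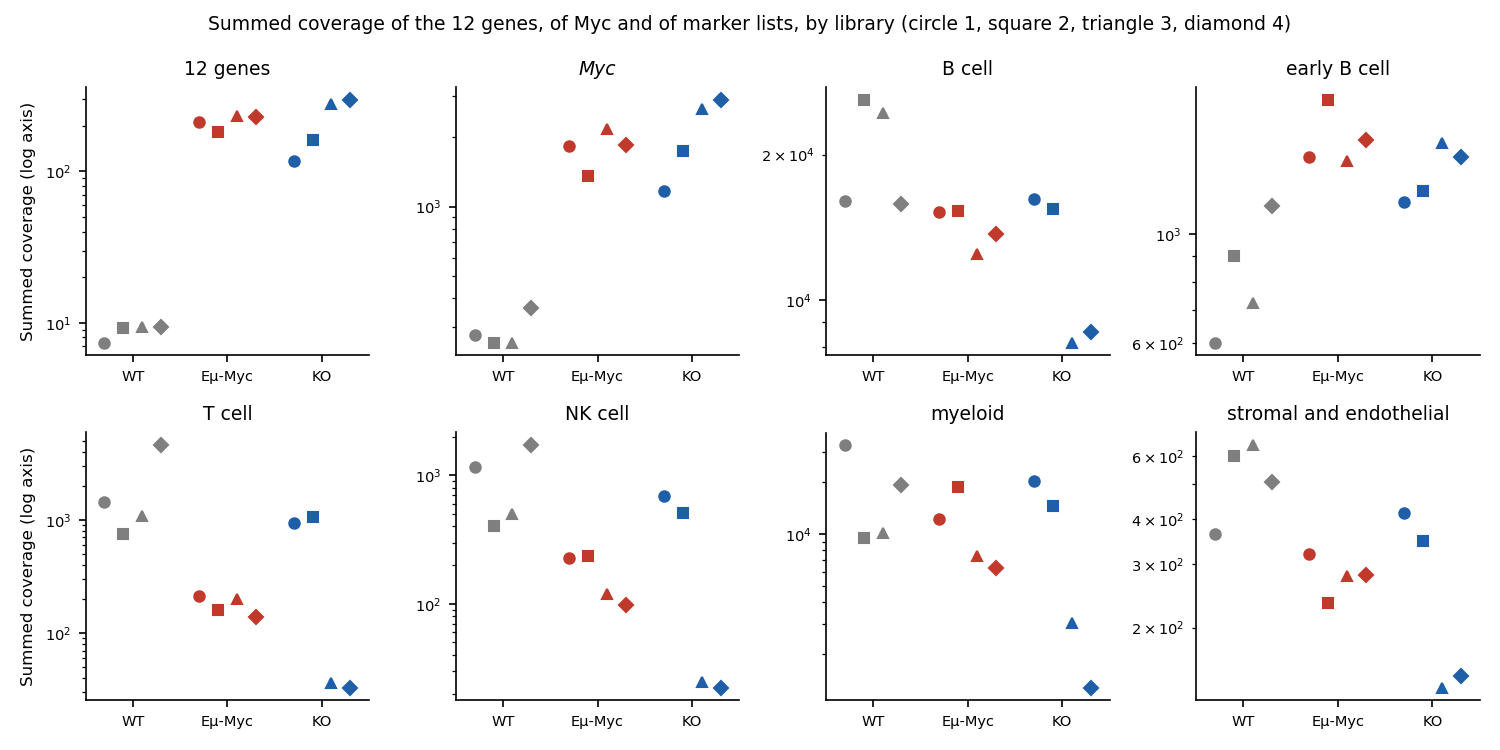
Summed scaled coverage (y axes, logarithmic) of the 12 genes, of Myc and of 6 marker lists in each library, by group (x axis), with libraries 1 to 4 as circle, square, triangle and diamond. In the knockout group the 12 genes sum to 117, 162, 277 and 297, and T cell markers to 945, 1050, 36.5 and 32.8.

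Low, rather than absent, is the accurate word for the genes in WT. Of the 12, 11 were above 0 in all 4 WT libraries, and only Hspa12b was at 0 in a single one. Summed over the 12 genes, the scaled coverage was 7.35 to 9.40 in WT libraries and 183 to 233 in Eμ-Myc libraries. All 12 were modest in Eμ-Myc: their means ran from 10.05 to 39.8, at percentiles 46.6 to 67.1 of detected genes. Coverage is a level per length, so genes can be set side by side. Just inside the Eμ-Myc threshold lay Chst7, Orc1 and Rsph9, with lowest Eμ-Myc values of 8.53, 9.47 and 9.48. Just outside it lay Rag2, Rps6kl1 and Rad54b, with 7.87, 7.77 and 7.56. At the WT threshold, Rsph9, Orc1 and Ltbp4 were inside with highest WT values of 1.88, 1.78 and 1.53, and Pask, Exo1 and Pcdhga12 outside with 2.02, 2.03 and 2.24. No symbol showed the mirror image, at 8 or more in all WT and below 2 in all Eμ-Myc libraries. With 4 in place of 8 the directions were closer, with 40 symbols of any name low in WT and 31 low in Eμ-Myc. Among the 12500 symbols below 2 in all WT libraries, 0.104% reached 8 in all Eμ-Myc libraries. In limma over all genes, 55.1% of 12723 genes were called between Eμ-Myc and WT and 30.4% were called higher in Eμ-Myc, a contrast that the rule used and that is not read for the 12 genes.

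**Figure D2:**
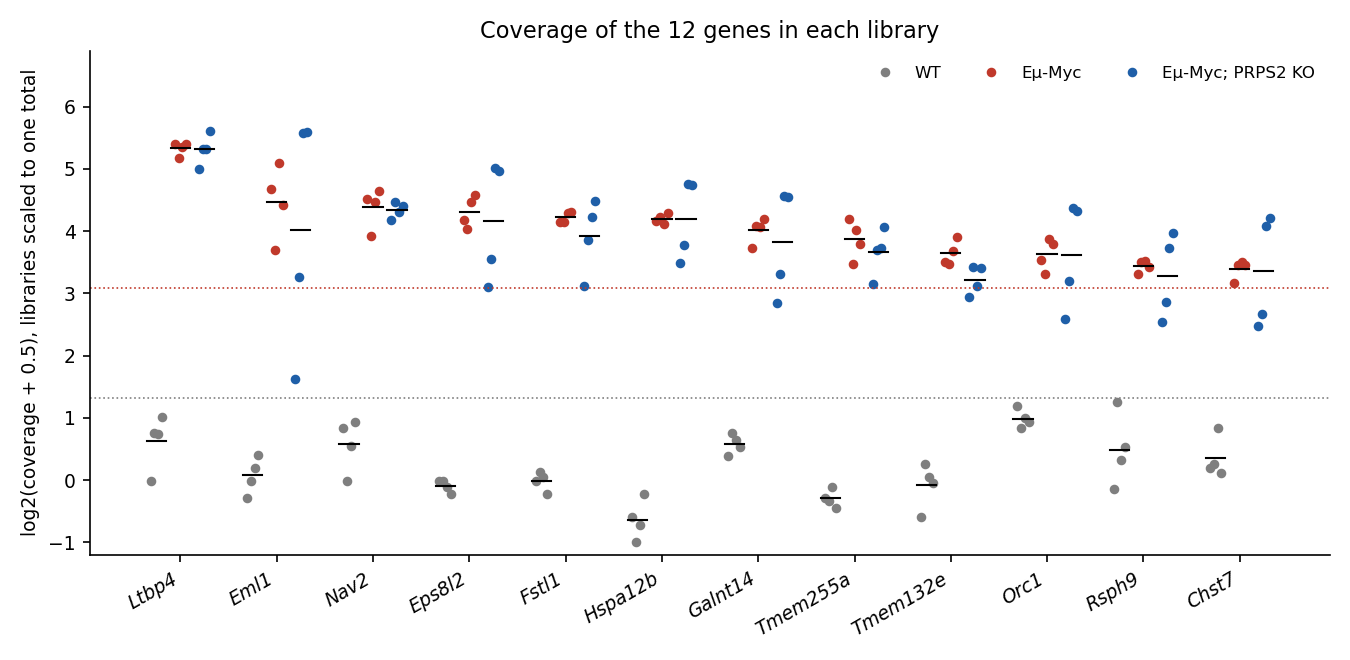
Log2 of scaled coverage + 0.5 (y axis) for each of the 12 genes (x axis); points are single libraries of WT, Eμ-Myc and Eμ-Myc; PRPS2 KO, 4 each, black bars are means, and dotted lines mark coverages of 2 and 8. WT points lie below 2 and Eμ-Myc points at 8 or above by the choice of genes, and the knockout points of Eml1 run from 2.60 to 48.0.

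Ltbp4 had the highest level of the 12 genes in Eμ-Myc. It encodes a matrix protein that holds latent TGF-β and takes part in elastic fibre assembly. Its scaled coverage was 0.485, 1.18, 1.17 and 1.53 in WT libraries 1 to 4, 41.9, 35.6, 40.3 and 41.6 in Eμ-Myc, and 31.4, 39.6, 39.7 and 48.1 in the knockout group. The knockout values lay around those of Eμ-Myc and overlapped them, with means of 39.7 ± 6.83 and 39.8 ± 2.94 (SD, n = 4). Fstl1, a secreted glycoprotein of the follistatin-like family, read 0.352 to 0.592 in WT, and 17.3, 17.3, 19.1 and 19.4 in Eμ-Myc. In the knockout group it read 8.23, 14.0, 18.2 and 21.9, with libraries 1 and 2 below every Eμ-Myc library and library 4 above every one. Both genes are typically strong in stromal or endothelial cells. The 7 markers of those cells other than Pecam1 and Vwf (Cdh5, Kdr, Col1a1, Col1a2, Col3a1, Pdgfrb, Madcam1) reached at most 1.60 in any of the 12 libraries, and 1.17 in Eμ-Myc. Pecam1, which blood cells also carry, read 355 to 629 in WT and 230 to 312 in Eμ-Myc, and Vwf, which megakaryocytes also carry, 2.00 to 11.7 and 2.55 to 5.35. Their part in the levels of the 12 genes was not tested.

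Hspa12b is a distant relative of the HSP70 chaperones, known from endothelium, and had the widest ratio of means between Eμ-Myc and WT, 115. It read 0.162, 0, 0.107 and 0.352 in WT, values that rest on deposited coverages of 0.3 or less written to 1 decimal, so the ratio is imprecise. In Eμ-Myc it read 17.3, 18.2, 16.9 and 19.0, an SD of 0.928 around 17.9. The knockout libraries read 10.7, 13.3, 26.6 and 26.2, the first pair below and the second pair above every Eμ-Myc library.

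Both glycan genes split in the same way in the knockout group. Galnt14 encodes a Golgi enzyme that places the first sugar of mucin-type O-glycans. It read 0.808 to 1.18 in WT, 12.8, 16.5, 16.2 and 17.8 in Eμ-Myc, and 6.72, 9.47, 23.2 and 22.8 in the knockout group. Chst7, a sulfotransferase that acts on glycosaminoglycans such as chondroitin, read 0.587 to 1.28 in WT and 8.53, 10.4, 10.8 and 10.5 in Eμ-Myc. Its knockout values were 5.09, 5.89, 16.5 and 18.0. For both genes the first pair of knockout libraries lay below all Eμ-Myc libraries and the second pair above them.

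In the knockout group, cytoskeleton genes held both the widest and the narrowest span of the 12. Eml1, a microtubule-binding protein of the EMAP family needed for the placement of neural progenitors, read 0.323 to 0.822 in WT, and 25.2, 12.5, 33.5 and 21.0 in Eμ-Myc. Knockout libraries read 2.60, 9.15, 47.4 and 48.0, an 18.5-fold span that was the widest of the 12 genes. Nav2, a neuron navigator protein first found as a retinoic acid response gene, read 0.493 to 1.41 in WT and 22.4, 14.6, 21.7 and 24.6 in Eμ-Myc. Its knockout values were 17.6, 21.6, 19.2 and 20.7, a 1.23-fold span, all inside the Eμ-Myc range. Eps8l2, an actin regulator related to Eps8, read 0.352 to 0.493 in WT, 17.7, 15.9, 21.6 and 23.3 in Eμ-Myc, and 8.13, 11.3, 31.7 and 30.7 in the knockout group. Rsph9, a radial spoke head protein of motile cilia, read 0.404, 1.87, 0.748 and 0.939 in WT and 9.48, 10.8, 11.0 and 10.2 in Eμ-Myc. Its knockout values of 5.31, 6.73, 12.7 and 15.2 again bracketed every Eμ-Myc library, as did those of Eps8l2 and Eml1.

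Tmem132e and Tmem255a encode membrane proteins; the first is linked to hearing, and the function of the second is poorly known. Tmem132e read 0.162 to 0.691 in WT, 10.8, 10.7, 12.3 and 14.6 in Eμ-Myc, and 7.15, 10.2, 8.17 and 10.1 in the knockout group. It was the only one of the 12 whose knockout libraries all lay below all Eμ-Myc libraries (0.653% of 12551 genes did). Under the trimmed-mean scaling used for the tests its groups overlapped, as they did for 11 others, beside 0.765% of genes without overlap in that direction. Tmem255a read 0.235 to 0.427 in WT, 17.9, 10.7, 15.7 and 13.4 in Eμ-Myc, and 8.34, 12.4, 12.8 and 16.2 in the knockout group, where only library 1 fell outside the Eμ-Myc range.

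Orc1, a subunit of the origin recognition complex, was the only replication gene. It read 1.78, 1.28, 1.50 and 1.41 in WT, the highest WT mean of the 12 (1.49 ± 0.210), and 11.1, 9.47, 14.2 and 13.3 in Eμ-Myc. The ratio of the means, 8.06, was the smallest of the 12. Knockout libraries read 5.53, 8.73, 20.3 and 19.5. The first pair lay below every Eμ-Myc library and the second pair above every one.

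None of 64 measured relatives of the 12 genes met both thresholds, which 0.052% of all symbols did, so nothing is read from that count. Of those relatives, 27 were below 2 in all 12 libraries and 22 were at 8 or more in all WT libraries. On the scale of the rule, 36 of them reached 2 in a WT or Eμ-Myc library. Of these 36, every Eμ-Myc library read above every WT library for 5 and below for 14. Among all genes tested the shares were 28.7% and 22.8%, but on the trimmed-mean scale. Relative to that scale, the rule's scale multiplies WT libraries by 1.03 to 1.13 and Eμ-Myc libraries by 0.874 to 1.00. This favours the lower direction, so counts and shares are not directly comparable. Among the 14, Eml2 read 73.2 ± 8.59 and 33.3 ± 6.88 in WT and Eμ-Myc (SD over 4 libraries), and Galnt6 112 ± 60.9 and 26.6 ± 7.62. Ltbp1, at 6.13 ± 3.48 and 1.78 ± 0.449, and Nav1, at 7.61 ± 2.61 and 3.74 ± 1.57, overlapped between the groups. Among the 5, Orc6 read 74.3 ± 2.12 and 260 ± 22.7, and the radial spoke gene Rsph1 read 4.97 ± 3.62 and 41.7 ± 7.19. The families were listed once the 12 names were known, so these are descriptions.

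**Figure D3:**
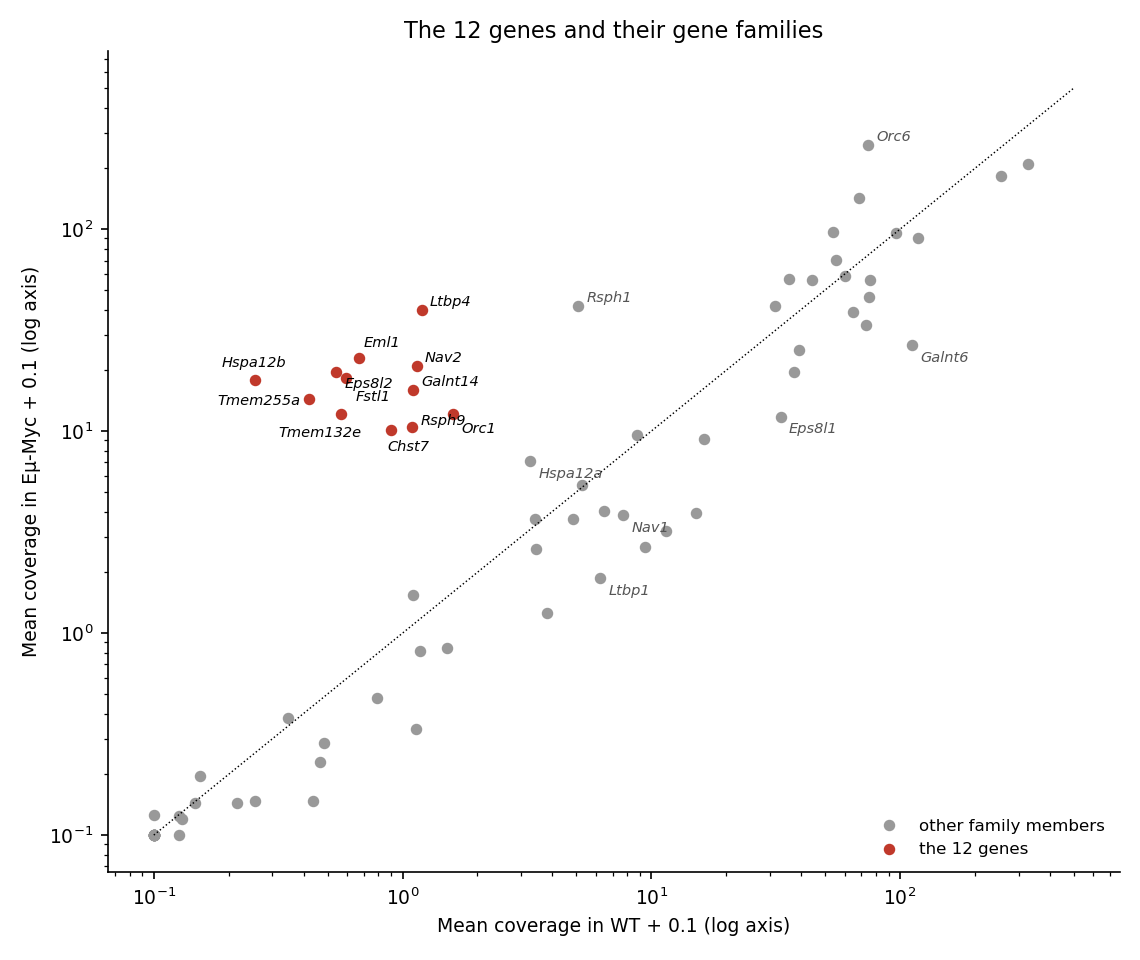
Mean scaled coverage of the 12 genes and of their relatives in WT (x axis) and Eμ-Myc (y axis), 0.1 added, both axes logarithmic, 4 libraries a group, with a dotted line of equal means. The 12 genes form the upper left group by the rule that chose them, and relatives such as Orc6 (74.3 and 260) and Galnt6 (112 and 26.6) lie on both sides of the line.

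Fixed lists of genes of other tissues were also counted, and at the share of 0.052% among all symbols a list of this size would be expected to hold none. None of 16 neuronal, 16 germline, 12 epithelial, 12 muscle and 24 developmental transcription factor genes met the thresholds, and of 18 extracellular matrix genes only Ltbp4 did. In the matrix list 12 of 18 genes were below 2 in all WT libraries, and 10 of them stayed below 2 in all 12 libraries. The same held for 15 of 15 germline, 10 of 10 neuronal, 8 of 8 muscle, 8 of 9 epithelial and 23 of 23 developmental transcription factor genes that were below 2 in all WT libraries, as it did for 97.0% of all such symbols. None of the 10 early B cell markers was among the 12, and they did not all move one way. On the scale of the rule, every Eμ-Myc library read above every WT library for 5 (Rag1, Rag2, Sox4, Vpreb3 and Bok). Every one read below for 2 (Il7r and Lef1), and 3 overlapped (Dntt, Cd93 and Erg). The shares of all genes tested, 28.7% above and 22.8% below, are on the trimmed-mean scale and not directly comparable. Il7r and Lef1 were highest in WT library 4, at 397 and 353, where the T cell markers were highest too.

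Without PRPS2, all 12 genes stayed above their WT level. Every knockout library read above every WT library for 12 of 12 genes, a pattern shown by 21.1% of 12692 genes tested. All 12 were at 2 or more in all 4 knockout libraries, 11 at 4 or more and 6 at 8 or more (Ltbp4, Nav2, Eps8l2, Fstl1, Hspa12b and Tmem255a). Of all 12500 symbols below 2 in WT, 0.056% were at 8 or more in all knockout libraries. Of all symbols at 8 or more in every Eμ-Myc library 94.1% were, and of the 3254 with means in the range of the 12 genes 86.2% stayed at 8 or more in all knockout libraries; of the 12 genes 6 did, and 3 did under trimmed-mean scaling. Single libraries decided that count: 6 genes were at 8 or more in library 1, 10 in library 2, and 12 each in libraries 3 and 4, and without library 1 the count was 10. In limma, with p-values adjusted over all genes by Benjamini-Hochberg, 12 of 12 were called higher than in WT, where 29.3% of genes were called and 19.7% were called higher. The log2 differences (coverage + 0.5) ran from 2.77 for Orc1 (SE 0.47, adjusted p = 0.0109) to 4.91 for Hspa12b (SE 0.40, adjusted p = 0.0027). Since WT was chosen as low, only the knockout side of this test and of the library counts above is independent of the rule. Eml1, called at adjusted p = 0.0223, was lost without any single WT library or knockout library 3 or 4 (0.0506 to 0.0646). All 12 were called higher without knockout libraries 1 and 2, where 35.5% of genes were called higher, and without 3 and 4, where 8.48% were.

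No member was called between the knockout group and Eμ-Myc. The Eμ-Myc side of this test was chosen as high by the rule, so only the knockout side is independent of it, and the signs are a description. limma on 12551 genes called 1 gene, Prps2 (0.00797%), and 0 of the 12; none of the 12 had an unadjusted p under 0.05, and 121 of all genes did. The estimates are log2 differences on the trimmed-mean scale, and their intervals were wide. Eml1 had -0.47 (SE 0.92, 95% interval -2.59 to 1.64), Ltbp4 -0.05 (SE 0.18, -0.46 to 0.37) and Nav2 -0.08 (SE 0.18, -0.49 to 0.33). Tmem132e, the member with the smallest p, had -0.45 (SE 0.20, -0.91 to 0.01; unadjusted p = 0.0542, adjusted p = 1.00 in limma). For all others the estimate lay between -0.33 (Fstl1) and -0.03 (Hspa12b and Orc1), with intervals that included 0. All 12 estimates were below 0, as were 56.7% of all genes, with a median of -0.19 against -0.03. The sign is not firm, since without knockout library 1 it was above 0 for 9 of the 12. Plain means, taken without logs on the scale of the rule, were higher in the knockout group than in Eμ-Myc for 5. In limma on that scale all 12 estimates were still below 0. With limma's library quality weights, 8 of the 12 were called, all higher, where 59.4% of genes were called and 31.1% were called higher.

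**Figure D4:**
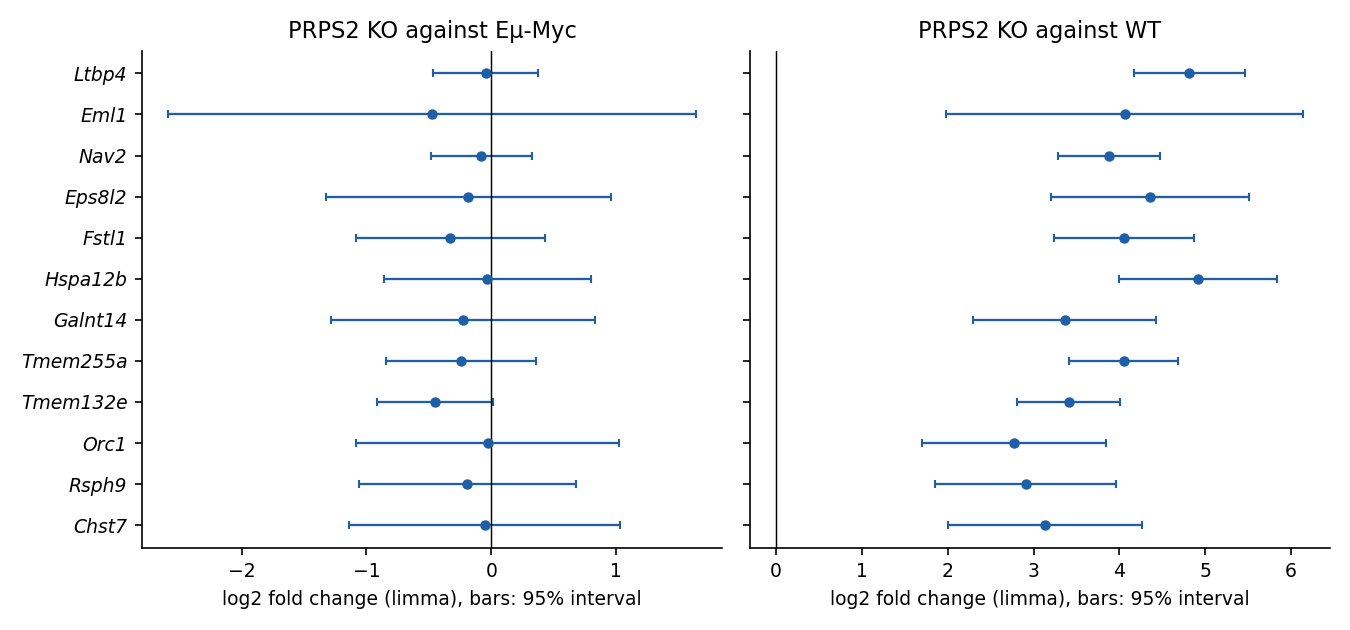
Log2 difference (x axis, limma, log2 of coverage + 0.5) of the knockout group from Eμ-Myc (left) and from WT (right) for the 12 genes, points with 95% intervals, 4 libraries a group. On the left every interval includes 0, and on the right the estimates run from 2.77 (Orc1) to 4.91 (Hspa12b).

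Knockout libraries were spread more widely than those of the other groups. The rule bounded the WT and Eμ-Myc values of the 12 genes and not the knockout values, so their spreads are a description, given beside those of all genes. The SD of log2 coverage had a median of 0.81 over the 12 genes in the knockout group, against 0.22 in Eμ-Myc and 0.28 in WT; over all genes tested the medians were 0.39, 0.21 and 0.22. Knockout library 1 was the lowest of its group for 12 of 12 genes (32.9% of all genes), and libraries 3 and 4 were both above 1 and 2 for 10 of 12 (35.2%). For 7 of 12 the first pair lay below and the second pair above every Eμ-Myc library (11.3%). On the trimmed-mean scale these counts were 12, 11 and 9, beside 44.0%, 46.0% and 17.0% of all genes. Relative to the Eμ-Myc mean, the median of the 12 genes was 50.9%, 73.4%, 135% and 145% in knockout libraries 1 to 4, while Myc mRNA stood at 64.9%, 96.6%, 146% and 161%. Bcat1, which the rule left out by name, read 21.5, 35.0, 95.9 and 94.5, beside 49.5 ± 8.09 (SD, n = 4) in Eμ-Myc. The summed B cell (mostly through Cd74), T cell, NK cell and myeloid markers were lower in both libraries 3 and 4 than in 1 and 2. The 10 early B cell markers summed to 1158, 1220, 1530 and 1430, mostly from Vpreb3 (856, 892, 1360 and 1264), and did not move together. Vpreb3, Sox4 and Bok were higher in both libraries 3 and 4 than in 1 and 2. Rag1, Rag2, Il7r, Lef1 and Erg were lower in both, and Dntt and Cd93 showed neither order. The part of these markers, or of Myc, in the genes' levels was not tested.

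**Figure D5:**
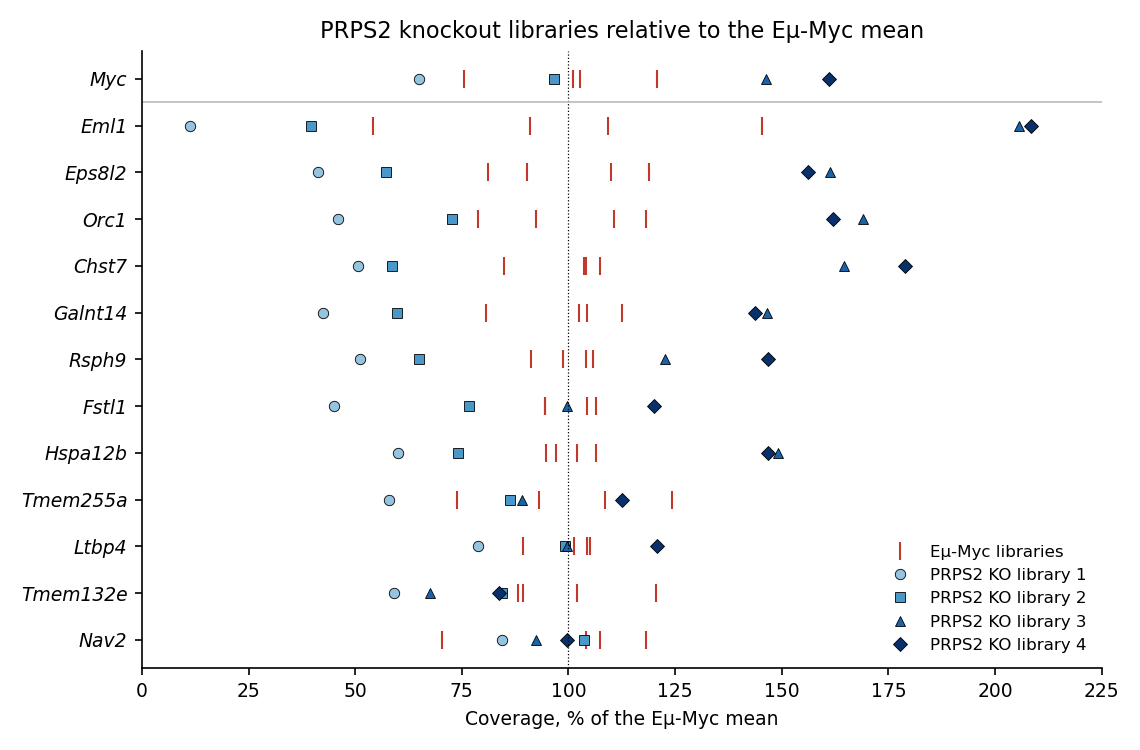
Coverage as a percent of the gene's Eμ-Myc mean (x axis) for each of the 12 genes and Myc (y axis); red ticks are Eμ-Myc libraries, blue symbols knockout libraries 1 to 4. Medians of the 12 genes in knockout libraries 1 to 4 are 50.9%, 73.4%, 135% and 145%.

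The pairs of knockout libraries were told apart by their values, so calls that leave out a pair follow that order, and they rest on 2 knockout libraries and on an Eμ-Myc side chosen by the rule. Without libraries 1 and 2, limma called 6 of the 12 genes (Chst7, Eml1, Eps8l2, Galnt14, Hspa12b and Orc1), all higher in the knockout group, where 28.0% of genes were called and 11.7% were called higher. Without libraries 3 and 4 it called 4 (Chst7, Eps8l2, Galnt14 and Rsph9), all lower, where 4.31% of genes were called and 1.91% were called lower. Chst7, for example, had 0.85 in the first case (adjusted p = 0.0145) and -0.95 in the second (adjusted p = 0.0457). Ltbp4, Nav2, Fstl1, Tmem132e and Tmem255a were called in neither.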

How the data were processed

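Polyadenylated RNA of splenic B lymphocytes was made into directional libraries, 4 for each genotype, per the labels. The authors deposited 1 file per library with a mean coverage signal per gene, written to 1 decimal; median levels did not grow with exonic length over 11780 detected protein-coding genes (45.3 in the shortest of 4 equal length classes and 31.7 in the longest). Per the submitters' processing notes the build was mm10, and DESeq and R 4.3.3 were used in roles not given. The aligner, the counting step and the annotation are not given in the sources used here. Read depth is unknown, so precision rests on the spread between libraries, and p-values measure only that spread; deposited coverage summed to 1277305 to 1885769 per library.

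Levels are coverage scaled to a total of 1500000. Tests used limma 3.58.1 in R 4.3.3, two-sided, on log2(coverage + 0.5) after trimmed-mean scaling (30% of log ratios and 5% of means trimmed, unweighted). All genes that reached 1 in 4 or more of the 8 libraries were fitted together with a trended, robust prior, and an adjusted p under 0.05 was a call. The fit was tested on simulated data. Tables and figures used Python 3.11.15, numpy 2.4.6, pandas 2.3.3 and matplotlib 3.10.9. Promoters came from RefSeq (GRCm38.p6; 12 of 12 genes matched) and positions from GENCODE M21 on GRCm38.

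The genes, lists and tests were chosen with earlier results of these data known. Genes were named by a rule: all 12 genes, Myc and Prps2 as checks, the symbols left out by name and the 3 symbols on each side of each threshold. Relatives and the genes under other observations were named after their values were seen. Same-numbered knockout and Eμ-Myc libraries had correlated deviations from their group means (r = 0.66, 0.19, 0.25 and 0.61 across genes), so 1 alternative took the numbers as pairs. Libraries of unlike number were not compared, so these values do not show that a number marks a pair. This pairing comes from the values alone. Alternatives were other scalings, pseudocounts of 0.1 and 2, filters, thresholds of the rule, all 12 libraries in one fit, library quality weights, a replicate block, and leaving out libraries. A further B cell marker of the planned list is not reported here, and sums over that list leave it out.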

Additional observations from a re-analysis of the deposited data

Results flagged for a closer look

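Within a group of 4, a library was marked where its gap to the nearest other as a share of the group's range was above Dixon's critical value; 51 groups of values were looked at and chance marks about 1 in 20. Chst7 read 1.28 in WT library 3, against 0.587 to 0.691 in the other WT libraries. Chst7 also read 8.53 in Eμ-Myc library 1, against 10.4 to 10.8 in the others. Prps2 read 101 in WT library 1, against 140 to 147 in the others.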

How the results depend on the processing

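The number of genes that met the rule was 6 with a WT limit of 1, 64 with a limit of 4, 34 with an Eμ-Myc minimum of 4 and 3 with a minimum of 16. It was 15 under trimmed-mean and 13 under median-of-ratios scaling, and leaving out single WT or Eμ-Myc libraries gave 12 to 16. At 8 or more in all knockout libraries stood 6 genes, 3 under trimmed-mean scaling, 11 with a minimum of 4, 6 to 10 when 1 knockout library was left out, and 12 without libraries 1 and 2. Against Eμ-Myc, calls among the 12 genes were 0 when 1 library was left out and 0 with the replicate block, but 8 with library quality weights (all higher; 59.4% of all genes were called and 31.1% were called higher), 6 without knockout libraries 1 and 2 and 4 without 3 and 4. The signs turned to above 0 with quality weights for 10 genes, at 0.80 for Chst7, 0.83 for Eml1, 0.60 for Eps8l2, 0.22 for Fstl1, 0.56 for Galnt14, 0.65 for Hspa12b, 0.25 for Ltbp4, 0.62 for Orc1, 0.51 for Rsph9 and 0.092 for Tmem255a. Without knockout libraries 1 and 2 they turned for 11 genes, at 0.85 for Chst7, 1.21 for Eml1, 0.76 for Eps8l2, 0.22 for Fstl1, 0.63 for Galnt14, 0.64 for Hspa12b, 0.23 for Ltbp4, 0.057 for Nav2, 0.81 for Orc1, 0.50 for Rsph9 and 0.12 for Tmem255a. With 1 library left out, 17 of 96 values turned, and the log2 differences ranged from -0.37 to 0.29 for Chst7, -1.04 to 0.37 for Eml1, -0.51 to 0.22 for Eps8l2, -0.52 to 0.15 for Galnt14, -0.26 to 0.26 for Hspa12b, -0.18 to 0.11 for Ltbp4, -0.20 to 0.027 for Nav2, -0.32 to 0.37 for Orc1 and -0.46 to 0.10 for Rsph9. The cause was not tested. Against WT, 12 genes were called with the replicate block and 11 to 12 when 1 library was left out; over all genes the calls were 3716, 1863 with the block, 10505 with quality weights, and 614 (without WT library 3) to 6820 (without knockout library 1) with 1 library left out. The median log2 difference of the 12 from WT was 3.96, 4.54 with a pseudocount of 0.1 and 2.76 with 2, and total scaling moved the median of all genes from -0.01 to -0.16. Run for these comparisons only, the block changed no call among the 12 genes. A filter of 10 in every library left 0 of the 12 genes against WT and 3 against Eμ-Myc. Coverage to 1 decimal limits the WT levels.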

Other observations

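An Eμ-Myc minimum of 4 in place of 8 added 22 genes, all of them below 2 in every WT library. For all 22 every knockout library read above every WT library (21.1% of all genes tested). The choice set their WT values low, so only the knockout side of this count is independent of it. In 17 of the 22, knockout libraries 1 and 2 read below 3 and 4 (35.2% of all genes). They read above in 4 (51.5%), and 1 gene showed neither order. Of the genes picked here after their values were seen, Pycr1, which makes proline, read 0.871 ± 0.393 in WT and 7.04 ± 1.27 in Eμ-Myc, and Cth, which makes cysteine, 0.262 ± 0.123 and 7.82 ± 1.35 (SD, n = 4 each). Rad51b, a recombination protein, read 1.27 ± 0.341 and 7.15 ± 1.23, and Rad54b, another, 1.30 ± 0.484 and 8.39 ± 0.775. Rag2, which cuts antigen receptor genes in immature lymphocytes, read 0.355 ± 0.147 in WT and 8.50 ± 0.658 in Eμ-Myc, and 5.31, 6.84, 5.15 and 4.91 in the knockout libraries. In the knockout libraries Rps6kl1 read 2.17, 6.94, 30.3 and 23.1.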
